A study of Mus musculus with 6 samples.

Results

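The lincRNAs, long non-coding RNAs transcribed from DNA between protein-coding genes, were examined in tumour-associated macrophages, the macrophages that settle in a tumour. Members were the genes of type lincRNA in the GENCODE M21 annotation with a raw count of 10 or more in at least 3 of the 6 libraries. Better known nuclear and imprinted RNAs, small nucleolar and microRNA host genes and several other genes named in the rule were left out. The rule kept 248 of the 55487 genes in the count tables and of the 5614 of type lincRNA, and 14 further lincRNAs that met the count rule were left out by name. The members were thus chosen by raw counts in the same 6 libraries. Of those 14, 1 passed the test between labels described below, 4930440I19Rik, so the number of calls among the members depends on the names left out.

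The cells came from Lewis lung carcinoma, a mouse tumour line that can be transplanted. It was injected subcutaneously into C57BL/6 mice, and tumours were taken 15 to 17 days after injection. The cells were sorted as CD11b+, F4/80+, Ly6C- and Ly-6G- and divided by surface MHC class II into MHC-II high and MHC-II low, with 3 libraries of rRNA-depleted total RNA per label and 1 library of each label in each of 3 batches. Both groups share host strain, tumour line and gate, no normal macrophages were part of the comparison, and the labels name no mouse for a library, so p-values measure library spread that may be technical alone. The study's title ties macrophage states to lncRNAs, and the comparison made here is of each lincRNA between the labels.

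Reads in genes numbered 10202879 to 25473051 per library. The transcripts of the sorted protein went against the labels: H2-Aa, an MHC class II chain, averaged 5.52 ± 1.15 CPM (the deposited count over the TMM-scaled library size) for the high label, against 1350 ± 172 CPM for the low label (SD, n = 3 each). The groups are therefore named by their labels, and directions are those of the libraries as labelled. The library labelled low replicate 3 stood apart. In it, the rRNA copy CT010467.1 took 47.3% of the reads in genes, against 3.85% to 13.5% elsewhere, and 4669280 reads lay outside rRNA and mitochondrial genes, against 11670800 to 17982800. All 10 macrophage markers were tested and 0 were called, with a summed level of 9139 to 10910 CPM in labelled-high libraries and 6012 to 9316 CPM in labelled-low ones. The 10 dendritic cell markers summed to 47.7 to 90.2 CPM in labelled-high libraries and 266 to 400 CPM in labelled-low ones, with 3 of 7 tested lower in labelled-high libraries. The 5 epithelial markers summed to 14.8 to 21.7 and 41.0 to 42.6 CPM, with 1 of 3 tested lower in labelled-high libraries. Neutrophil (4.56 to 9.30 and 1.49 to 5.18 CPM), lymphocyte (1.45 to 1.97 and 4.74 to 10.5 CPM) and fibroblast and endothelial markers (86.7 to 400 and 145 to 569 CPM) had 0 genes called. These lists held 8 genes each, of which 2, 1 and 8 were tested in that order. The lymphocyte sums did not overlap and were higher in labelled-low libraries. Ly6g, Cd3e, Cd3d and Cd8a had 0 reads in all libraries. The part of these cell types and of labelled low replicate 3 in the lincRNA values was not tested, except where values without that library are given. In bulk RNA, fewer cells of a type and less RNA per cell cannot be told apart.

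Most lincRNAs carry a cap and usually a poly(A) tail like mRNAs, but encode no long protein. A few act near their own site, as Xist does in coating the X chromosome it is made from. Others act in the cytoplasm as decoys for proteins or small RNAs, and for most no function is known. In macrophages some are induced with inflammatory genes or mark enhancers. Their levels are usually lower than those of mRNAs and differ more between cell types.

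Sequences of 4 abundant members are shown, Bc1 as a whole and the others for an element by which each RNA is known. They were read from the GENCODE M21 transcripts, and positions count from 1 at the 5′ end of the longest transcript. The whole Bc1 RNA of 168 bases is given with its longest run of A, 23 bases, in capitals. From 2900097C17Rik, also called Norad, bases 2422 to 2501 of 4915 are given, with the motif TGTANATA that Pumilio proteins bind in capitals. From 1700020I14Rik, also called Cyrano, bases 2935 to 2959 of 8300 are given below the mature mmu-miR-7a-5p (RefSeq, GRCm38.p6). Capitals there mark the seed of the miRNA, bases 2 to 8, and in Cyrano the stretches complementary to bases 11 to 23 and 2 to 8. From Xist, bases 352 to 543 of 17946 are given, in the A-repeat that silencing requires, with the letters ATCGGGG in capitals.
Bc1: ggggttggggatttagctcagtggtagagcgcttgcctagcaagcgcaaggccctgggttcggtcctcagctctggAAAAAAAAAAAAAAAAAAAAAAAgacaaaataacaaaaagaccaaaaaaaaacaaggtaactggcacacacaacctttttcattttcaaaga
2900097C17Rik: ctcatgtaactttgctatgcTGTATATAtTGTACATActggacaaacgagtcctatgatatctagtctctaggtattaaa
mmu-miR-7a-5p: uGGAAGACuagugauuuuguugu
1700020I14Rik: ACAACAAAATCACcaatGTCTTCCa
Xist: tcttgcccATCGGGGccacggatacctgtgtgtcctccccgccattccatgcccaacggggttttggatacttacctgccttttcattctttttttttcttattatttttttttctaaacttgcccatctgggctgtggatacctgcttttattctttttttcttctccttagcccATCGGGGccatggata

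The elements other than the run of A were searched on the sense strand of the longest transcript of all 248 members. TGTANATA occurred 11 times in 2900097C17Rik, or 2.24 times per kilobase. By number of copies the next was Xist with 6, and A430106G13Rik had 5, at 0.334 and 1.48 per kilobase. Copies per kilobase were worked out for these named members alone, so members are not ranked by them. In all, 60 members (24.2%) had a copy. The letters GTCTTCC, which pair with the miR-7 seed, occurred in 50 members (20.2%). Only in 1700020I14Rik among the 248 did such a match follow, within 20 bases, the full complement of bases 11 to 23, with 4 bases between the stretches against 2 in the miRNA. ATCGGGG occurred 3 times in Xist and in 4 members (1.61%) in all. Such matches describe the letters and do not show binding.

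The members were mostly short, unnamed and of low level. Of the 248, 132 carry a Gm number, 82 a Rik name and 34 another name. Some of the latter are names of protein-coding genes or pseudogenes, such as Zfp469 and Tmem250-ps. Merged exons covered 154 to 17946 bases, with a median of 2128 against 4570 for the 11651 protein-coding genes that met the same count rule. A single block of exons made up 58 members and 2 blocks 65, while 11 had 10 or more, led by Ftx with 23, Pvt1 with 21 and Gm14005 with 16. The GC content of the longest transcript ran from 34.1% to 75.5%, with a median of 46.5% against 49.4% for those protein-coding genes. Members lay on chromosomes 1 to 19 and X, with 26 on chromosome 5, 23 on chromosome 1 and 5 on the X. Although of an intergenic type, 100 overlapped another annotated gene, 53 on the same and 68 on the opposite strand, and 24 overlapped a protein-coding gene. The strand setting of the counting is not given in the sources used here, so values of these overlapping members are uncertain. Among them are Xist, Lncpint and Gm14005, described below, with 3, 2 and 3 overlapping genes on the opposite strand.

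Levels were compared between genes as CPM per kilobase of merged exons (RPKM). The median over the members was 0.814 RPKM, against 4.02 RPKM for the protein-coding genes that met the count rule. Only 11 members reached 10 RPKM, 17 reached 5 and 104 reached 1. The range ran from 0.0986 to 172 RPKM. Xist alone supplied 45.5% to 58.2% of the member reads of a library. The other 247 members summed to 1124, 1243 and 1282 CPM in the libraries labelled high and to 1138, 1332 and 1090 CPM in those labelled low. These sums overlapped, at 1217 ± 82.3 and 1186 ± 128 CPM (SD, n = 3 each).

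**Figure D1:**
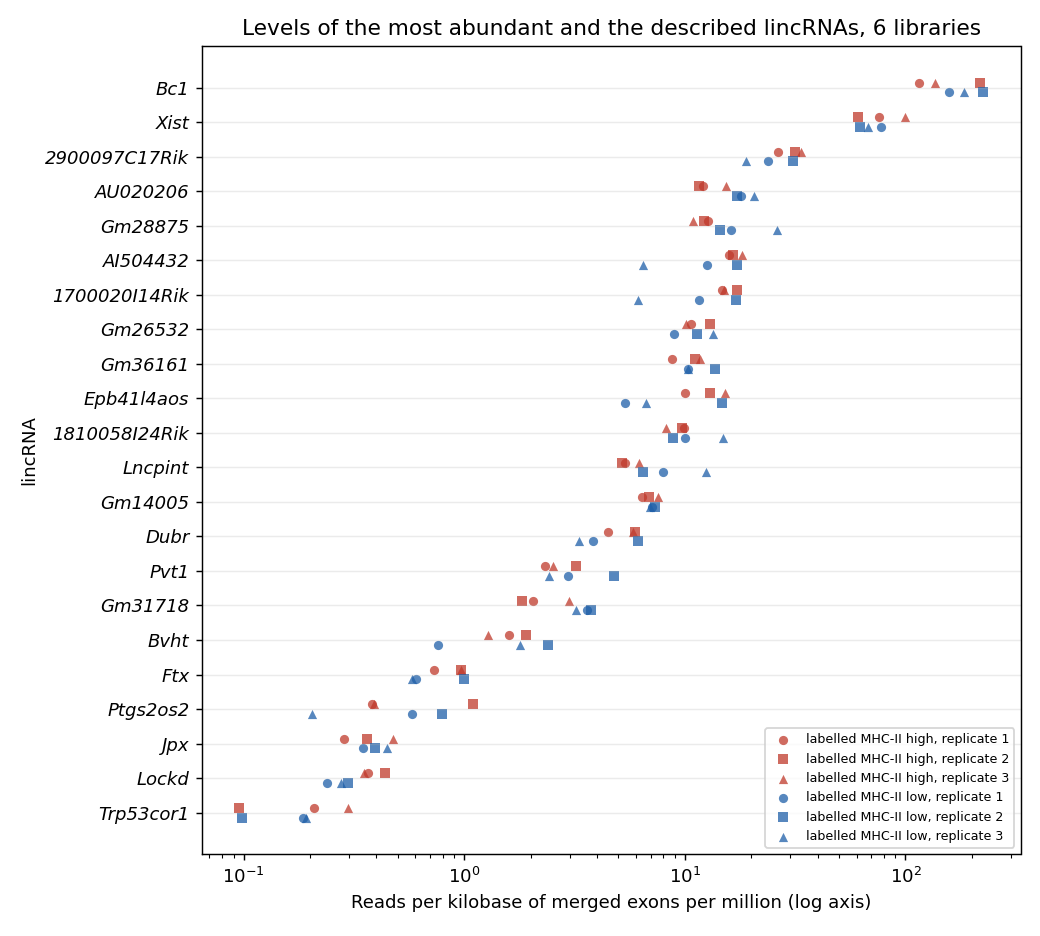
Level of the 12 most abundant lincRNAs and of those with a described role, in RPKM on a log axis, with 1 point per library (red, labelled MHC-II high; blue, labelled MHC-II low; the marker gives the replicate). Bc1 and Xist lie above the rest, and the 2 labels overlap for most RNAs.

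Bc1, a short RNA made by RNA polymerase III and known as a repressor of translation in neurons, was the most abundant member per length. It lies on chromosome 7 from 144914470 to 144914637 (GRCm38). Its level was 115, 217 and 136 RPKM in labelled high replicates 1, 2 and 3 and 158, 225 and 184 RPKM in labelled low replicates 1, 2 and 3. Replicate 2 was the highest of either label and the groups overlapped. Its log2 fold change of labelled high over labelled low was -0.28 with a standard error of 0.27 (adjusted p 0.613 by edgeR). The 5′ part of Bc1 resembles repeats scattered over rodent genomes. Multiply aligned reads were not counted for any gene, so reads it shares with such copies are not in its level.

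Xist, the RNA that coats and silences an X chromosome in female cells, lies on the X from 103460366 to 103483254. It stood at 76.2, 60.7 and 99.6 RPKM in labelled-high libraries and 77.8, 62.0 and 67.8 RPKM in labelled-low ones, or 1415 ± 351 and 1242 ± 143 CPM. Labelled high replicate 3 was the highest and the other 5 lay between 60.7 and 77.8 RPKM (log2 fold change 0.19 ± 0.23 SE, adjusted p 0.676 by edgeR). The Y-linked genes Kdm5d, Ddx3y, Uty and Eif2s3y, looked up after Xist had been seen, had at most 2 reads each in any library. Ftx and Jpx, neighbours of Xist in the X inactivation centre that promote its expression, were far lower, at mean levels of 0.806 and 0.385 RPKM. Their CPM were 9.05 ± 1.38 and 7.42 ± 2.40 for Ftx and 3.27 ± 0.83 and 3.47 ± 0.45 for Jpx, and the groups overlapped for both.

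The cytoplasmic decoys 2900097C17Rik and 1700020I14Rik ranked 3 and 7 in level. 2900097C17Rik, which holds Pumilio proteins away from their mRNA targets, lies on chromosome 2 from 156388065 to 156392979. It stood at 26.6, 31.6 and 33.7 RPKM in labelled-high libraries and at 23.9, 30.9 and 18.9 RPKM in labelled-low ones. The groups overlapped, and the lowest value was that of labelled low replicate 3. Its log2 fold change was 0.32 ± 0.22 (SE), and 0.16 without that library (adjusted p 0.510 and 0.845 by edgeR). 1700020I14Rik, through which miR-7 is degraded, lies on chromosome 2 from 119594297 to 119607502. Its levels were 14.7, 17.2 and 15.0 RPKM in labelled-high libraries and 11.6, 17.1 and 6.10 RPKM in labelled-low ones. Labelled low replicate 3 was again the lowest, and without it the log2 fold change of 0.42 became 0.12. AI504432, the member with the lowest GC content at 34.1%, had a like pattern, at 15.8, 16.5 and 18.2 RPKM and at 12.6, 17.2 and 6.44 RPKM. Its log2 fold change of 0.47 became 0.17 without labelled low replicate 3.

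Other members above 10 RPKM were AU020206, Gm28875, Gm26532, Gm36161, Epb41l4aos and 1810058I24Rik, with means of 15.8, 15.4, 11.3, 10.9, 10.8 and 10.2 RPKM. The groups overlapped for the last 4, whose adjusted p values lay between 0.569 and 0.981 by edgeR. For Gm28875 the libraries labelled low were all higher, at 16.2, 14.4 and 26.1 RPKM against 12.8, 12.2 and 10.8 RPKM. The log2 fold change was -0.65 ± 0.26 (SE), and -0.36 without labelled low replicate 3 (adjusted p 0.398 and 0.638 by edgeR). Syne3, its nearest protein-coding gene at 3244 bases on the same strand, stood at 62.55 ± 8.11 and 88.8 ± 28.5 CPM (edgeR adjusted p 0.442). Whether reads of Gm28875 come from Syne3 transcripts was not tested. Epb41l4aos, named for its place beside Epb41l4a, ranged from 5.33 RPKM in labelled low replicate 1 to 15.2 RPKM in labelled high replicate 3.

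Among members with a described role in chromatin or transcription, Lncpint was the most abundant. It is induced by p53 and works with a Polycomb complex, and lies on chromosome 6 from 31082565 to 31220488. It stood at 39.6, 38.4 and 45.8 CPM in labelled-high libraries and 58.9, 47.9 and 91.7 CPM in labelled-low ones, with all libraries labelled low above those labelled high. Its log2 fold change was -0.67 ± 0.25 (SE) and its adjusted p 0.384 by edgeR. Without labelled low replicate 3, which held the highest value, it was -0.37, with an adjusted p of 0.576 by edgeR. Pvt1, a large gene beside Myc that is amplified with it in tumours, stood at 18.7 ± 3.3 and 23.7 ± 8.7 CPM (edgeR adjusted p 0.557). Dubr, described in muscle differentiation, stood at 25.4 ± 3.8 and 20.7 ± 7.0 CPM, and Bvht, known from heart development, at 1.11 ± 0.22 and 1.15 ± 0.58 CPM. Lockd, which lies beside the cell cycle inhibitor gene Cdkn1b, stood at 2.23 ± 0.27 and 1.57 ± 0.17 CPM without overlap between the groups (adjusted p 0.483 by edgeR). Trp53cor1, a p53-induced RNA beside Cdkn1a, stood at 0.748 ± 0.38 and 0.592 ± 0.19 CPM with 4 to 31 reads per library.

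Of the lincRNAs tied to myeloid cells, Gm14005 was the most abundant member. It is also called Morrbid, keeps short-lived myeloid cells alive by holding down the death gene Bcl2l11, and lies on chromosome 2 from 128178319 to 128502765. Its level was 26.1, 28.0 and 30.8 CPM in labelled-high libraries and 28.9, 29.9 and 28.4 CPM in labelled-low ones. All 6 values lay close together (log2 fold change -0.04 ± 0.17 SE, adjusted p 0.921 by edgeR). Bcl2l11, the nearest protein-coding gene at 15772 bases, stood at 56.1 ± 4.0 and 72.9 ± 7.2 CPM (edgeR adjusted p 0.420). Ptgs2os2, also called lincRNA-Cox2 and induced with the prostaglandin synthase gene Ptgs2 in inflamed macrophages, was near the lower end, with 2 to 43 reads per library. It stood at 0.668, 1.92 and 0.679 CPM in labelled-high libraries and at 1.01, 1.39 and 0.357 CPM in labelled-low ones, so replicate 2 was the highest of either label. Ptgs2 stood at 71.6 ± 18 and 106 ± 37 CPM (edgeR adjusted p 0.451). Gm31718 stood at 3.73, 3.34 and 5.43 CPM in labelled-high libraries and 6.61, 6.83 and 5.89 CPM in labelled-low ones, without overlap. Groups were likewise apart on that side for 9.48% of all genes tested. The tie of Gm31718 to myeloid cells was not tested. The log2 fold change was -0.63 ± 0.27 (SE) and its adjusted p 0.410 by edgeR.

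The 15 members with a described role came from 4 lists with 55 names in all, older names included. Of these names 45 were in the count tables, genes that are no members included, and 25 were high enough to test. By edgeR 0 of the 25 passed in either direction, against 0.446% of all genes tested. At that share few calls or none would fall among 25 genes. Another 8 had 0 reads in every library, among them Hotair and Hottip, which act on Hox genes. Several names of the lists, such as Tug1 and Firre, have another type in M21 and are no members.

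No member passed the threshold between the labels by edgeR's quasi-likelihood test over all genes, with an adjusted p threshold of 0.05. The default filter on low counts kept 233 of the 248 members, and the other 15 were too low. Called were 0 members in either direction, against 63 of 14140 genes (0.446%), which was 0.0919% of genes higher and 0.354% lower in labelled-high libraries. At such a background few calls or none would fall in a list of this size. At an unadjusted p under 0.05 stood 7 members on the higher and 17 on the lower side, together 10.3% of those tested, against 4.06% and 7.99% of all genes, or 12.1%. The groups did not overlap for 14 members higher and 25 lower in labelled-high libraries. These were 6.01% and 10.7% of those tested, against 10.5% and 9.48% of all genes. Gm31904 is among the 7 and among the 14, and it met the rule through the 3 libraries labelled high alone. Its place in these counts was thus built in by the rule. Also tested was 2010110K18Rik, which met the rule in the same way. Without labelled low replicate 3 edgeR again called 0, of 246 members, and 7 higher and 9 lower stood under an unadjusted p of 0.05, or 6.50% against 8.91% of all genes.

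Other fits gave the same 0 members against backgrounds that differed widely. The share of all genes called higher and lower was 0.0919% and 0.347% with RLE size factors, 0.0566% and 0.368% with total counts, 0.856% and 1.96% by DESeq2, and 0.0707% and 0.297% by limma-voom. It was 0.102% and 0.377% with a filter at 1 CPM, 0.00707% and 0.283% with the batch as a block, 0.0914% and 0.359% without rRNA and mitochondrial genes, and 1.08% and 1.54% with an offset for GC content. Without labelled high replicates 1, 2 or 3 or labelled low replicate 1, 0 genes were higher and 0.061%, 0.0553%, 0.0967% and 0.0948% lower, and without labelled low replicate 3 0.101% and 0.369%. Members were called in 3 fits, and those named here were chosen after that was seen. With no filter on low counts Zfp469 was lower, where 0.416% of genes were higher and 1.6% lower. With GC offset and batch block together AU020206, Gm47127 and Gm49662 were lower, beside 1.74% of genes higher and 2.69% lower. Without labelled low replicate 2, Gm28151 and Gm30382 were higher and Zfp469 lower, beside 1.71% and 5.45% of genes.

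The fold changes lay on both sides of 0 in nearly equal number. Of the 233 tested members 116 had a positive and 117 a negative log2 fold change, with a median of -0.00059 against -0.02 for all genes tested, and quartiles of -0.40 and 0.32 against -0.44 and 0.27. They ran from -1.86 in Zfp469 to 2.33 in Gm31904, a member that met the rule through the 3 libraries labelled high alone. The next highest was 1.52 in Gm48324. A fold change of 1 or more on the log2 scale in either direction was seen in 24 members (10.3%) against 6.17% of all genes, and without labelled low replicate 3 in 16, against 5.35% of all genes. The sign changed in 35 of 233 when that library was left out. Members had a median count of 7 in labelled low replicate 3, against 21.5 to 33.5 elsewhere. The median log2 ratio over the members, of CPM with 0.1 added, was -0.07, -0.06 and 0.20 within batches 1, 2 and 3.

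**Figure D2:**
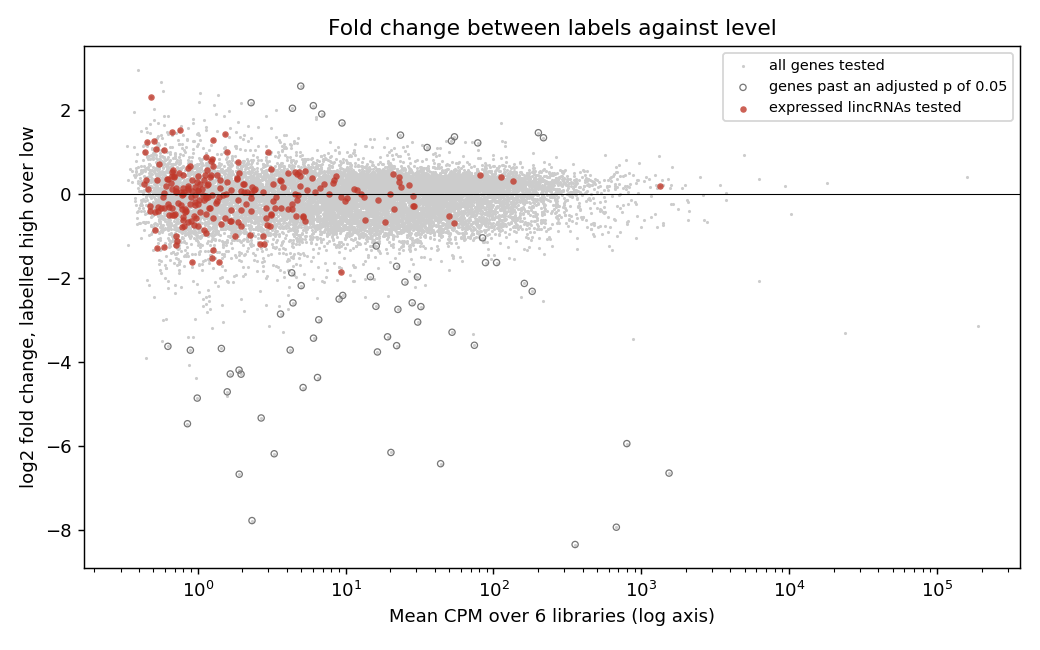
log2 fold change of labelled high over labelled low against mean CPM over the 6 libraries on a log axis. Red points are the 233 tested lincRNAs, grey points all 14140 genes tested, and open circles the 63 genes past an adjusted p of 0.05, among which no red point falls.

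In each direction 8 members are described that had the smallest p among those at a mean of 1 CPM or more in the higher label, as values and not as calls. On the side of the high label these were F730311O21Rik, Gm30382, Gm33370, Gm47507, Gm48324, Gm19325, Gm48427 and Gm34643. On the other side were Gm10522, Gm47127, Gm19951, Gm44659, AU020206, 4833445I07Rik, Gm37168 and Lncpint. Of these 16, 15 had groups that did not overlap and 15 had the same direction in the 3 batches, both of which their choice by p favours. Among all 233 tested members, groups did not overlap for 14 higher and 25 lower, and 88 had the same direction in the 3 batches. The adjusted p values of the 16 lay between 0.280 and 0.434 by edgeR, and between 0.373 and 0.639 without labelled low replicate 3.

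F730311O21Rik, on chromosome 1 from 132342023 to 132349626, stood at 3.62, 3.43 and 5.04 CPM for the high label, against 1.81, 2.41 and 1.61 CPM for the low label. Every library labelled high was above every library labelled low, with a log2 fold change of 1.02 ± 0.31 (SE), and 0.93 without labelled low replicate 3. The values came from 34 to 141 reads per library, but from 9 in labelled low replicate 3. Gm30382, on chromosome 3 from 149284418 to 149445301, stood at 2.17, 2.00 and 2.61 CPM against 0.426, 1.27 and 0.714 CPM, again without overlap (log2 fold change 1.44 ± 0.44 SE). It was past the threshold without labelled low replicate 2 (adjusted p 0.0390 by edgeR), a setting in which 1.71% of all genes were called higher. Gm33370 stood at 1.22, 2.09 and 2.22 CPM against 0.693, 1.02 and 0.357 CPM, and Gm47507, which lies beside the macrophage transcription factor gene Klf6, at 2.00, 2.45 and 2.00 CPM against 1.39, 1.06 and 0.535 CPM. For both, labelled low replicate 3 held the lowest value, from 2 and 3 reads.

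A pair of members on chromosome 10 lay near each other on the same strand and on the same side of the comparison. Gm31904, from 10230736 to 10234850, had 16, 13 and 24 reads in labelled-high libraries and 1, 4 and 2 reads in labelled-low ones. It reached 10 reads in the 3 libraries labelled high alone, so the rule itself built in its difference between labels, and its log2 fold change of 2.33 is given as a description without a test. It was named after its values were seen. Gm48324, from 10270402 to 10296929, had 18, 37 and 26 reads against 8, 14 and 0 reads. Their nearest protein-coding gene, Adgb, which encodes androglobin and lies on the same strand, stood at 6.21 ± 0.88 CPM in labelled-high libraries and 2.71 ± 0.29 CPM in labelled-low ones (log2 fold change 1.22 ± 0.26 SE, adjusted p 0.122 by edgeR). Neither Gm48324 nor Adgb passed the threshold.

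On the side of the low label, AU020206 had the highest level per length. It lies on chromosome 7 from 75769038 to 75782099, 14429 bases from Akap13, which encodes a kinase anchor protein. Its level was 38.6, 37.0 and 49.0 CPM in labelled-high libraries and 57.3, 54.7 and 65.3 CPM in labelled-low ones, from 366 to 1371 reads. The groups did not overlap, and the log2 ratios within batches 1, 2 and 3 were -0.57, -0.56 and -0.41. Its log2 fold change was -0.51 ± 0.19 (SE), and the adjusted p by edgeR was 0.382, or 0.0176 with GC offset and batch block together. Akap13 stood at 272 ± 24 and 327 ± 64 CPM (edgeR adjusted p 0.534).

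Gm47127, on chromosome 13 from 34610827 to 34612246, stood at 1.28, 1.92 and 2.29 CPM in labelled-high libraries and 3.73, 3.52 and 3.75 CPM in labelled-low ones. All 3 libraries labelled low lay close together and above the others (log2 fold change -0.99 ± 0.31 SE, adjusted p 0.298 by edgeR, 0.0484 with GC offset and batch block together). Pxdc1, its nearest protein-coding gene at 15588 bases on the same strand, stood at 9.3 ± 1.8 and 22.0 ± 7.3 CPM. The log2 fold change of Pxdc1 was -1.24 ± 0.29 (SE), with an adjusted p of 0.152 by edgeR. Gm10522, on chromosome 1 from 170981944 to 170986466, starts 5397 bases from Fcgr2b, the gene of the inhibitory Fc gamma receptor of macrophages, on the other strand. It had 3, 12 and 17 reads in labelled-high libraries and 33, 28 and 7 reads in labelled-low ones, or 0.437 ± 0.24 and 1.38 ± 0.33 CPM. The log2 fold change was -1.62 ± 0.51 (SE), while Fcgr2b stood at 689 ± 97 and 823 ± 50 CPM with a log2 fold change of -0.26 ± 0.18 (SE). Gm19951 stood at 0.334, 0.847 and 0.894 CPM against 1.49, 1.72 and 2.32 CPM, and 4833445I07Rik, whose start lies 99 bases from that of the complex I assembly gene Ndufaf3, at 2.12, 1.43 and 1.04 CPM against 3.57, 2.62 and 2.68 CPM. Gm37168 stood at 1.17, 0.936 and 1.36 CPM against 1.87, 2.00 and 3.39 CPM, and Gm44659 at 0.445, 1.16 and 0.286 CPM against 1.55, 1.59 and 2.50 CPM. For both, labelled low replicate 3 was the highest.

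**Figure D3:**
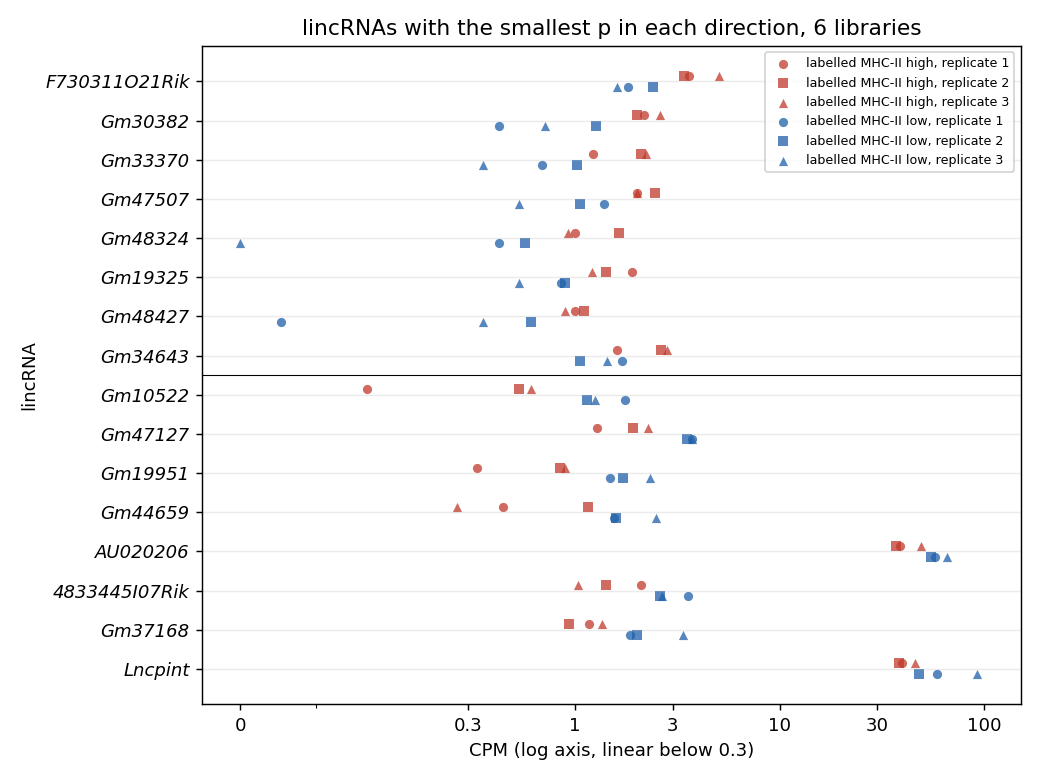
CPM in each library, on a log axis that is linear below 0.3, of the 8 lincRNAs with the smallest p on the side of the high label (above the line) and of the low label (below it). Red marks are the libraries labelled MHC-II high and blue marks those labelled MHC-II low. Gm34643 is the only 1 of the 16 whose groups overlap.

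Zfp469, the lowest fold change, rested on 1 library. It bears the name of a zinc finger gene, has type lincRNA in M21 and lies on chromosome 8 from 122269569 to 122272650. Its level was 5.29, 2.94 and 3.43 CPM in labelled-high libraries and 8.69, 2.25 and 33.0 CPM in labelled-low ones, so the groups overlapped and labelled low replicate 3 stood far above the rest. The log2 fold change of -1.86 ± 0.81 (SE) became -0.49 without that library (adjusted p 0.414 and 0.851 by edgeR). Without labelled low replicate 2 its adjusted p was 0.0328 by edgeR. Gm13067, chosen after its values were seen, had a like pattern, at 7.32 CPM in labelled low replicate 3 and 0.713 to 2.98 CPM elsewhere, and its log2 fold change of -1.19 became -0.37.

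Labelled low replicate 3 held the highest CPM of 61 members (24.6%) and the lowest of 93 (37.5%), against 36.9% and 37.1% of all genes tested. In it 103 members had 10 or more reads, against 201 to 239 in the other 5 libraries, and 14 members had no read. In all, 69 members met the minimum in every library but that 1, 96 met it in all 6, and 3 met it in the 3 libraries labelled high alone. For those 3, Gm31904, 2010110K18Rik and Gm19589, a difference between labels is built into the rule.

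The fold changes of the members went with GC content. Of 88 tested members under 45% GC, 62 had a positive log2 fold change, with a median of 0.18, and of 52 at 50% GC or more, 17 did, with a median of -0.27. The 93 between had a median of -0.14. Without labelled low replicate 3 these medians were 0.05, -0.13 and -0.11 in the same order, and 50, 20 and 33 were positive. The Spearman correlation over the 233 members was -0.35, and -0.15 over 246 members without that library. Over 14123 genes it was -0.58. Members share the libraries and their depth, so these correlations describe the tables only. The part of GC content in the fold changes was not tested.

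**Figure D4:**
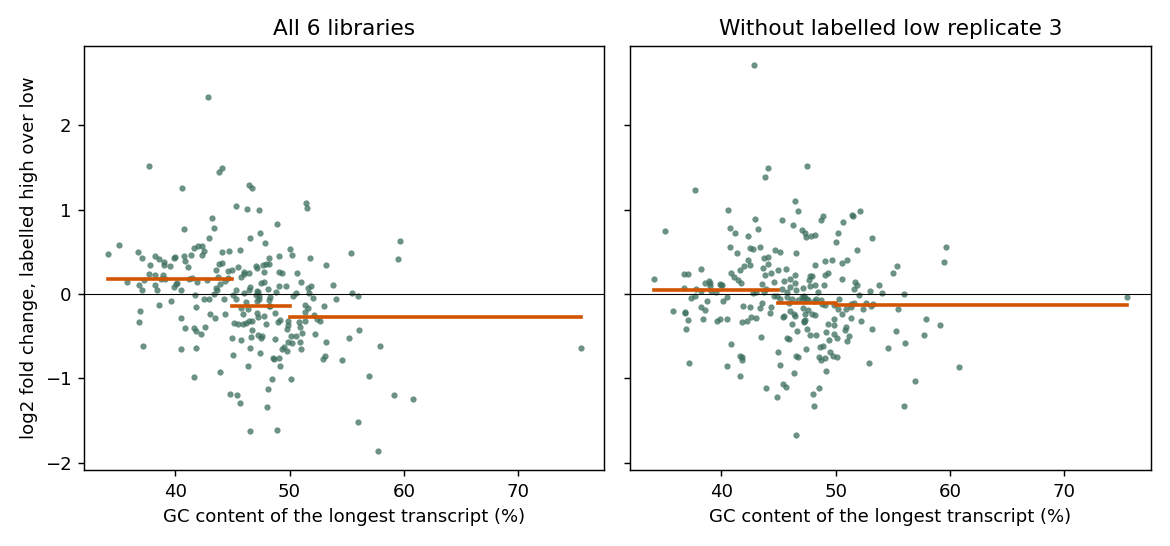
log2 fold change of labelled high over labelled low for each lincRNA against the GC content of its longest transcript in percent, in all 6 libraries (left) and without labelled low replicate 3 (right). Orange lines are the medians under 45%, from 45% to 50% and from 50% GC, which lie at 0.18, -0.14 and -0.27 on the left and nearer to 0 on the right.

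The nearest protein-coding gene lay within 5 kb of 123 members and within 50 kb of 195, with a median distance of 5188 bases. At 37 members it was transcribed the other way from a start within 1 kb. An example, chosen after its values were seen, was 5031425E22Rik with Kmt2e, a chromatin regulator gene, whose starts lay 172 bases apart. Kmt2e stood at 212 ± 9.9 and 206 ± 10 CPM and did not pass the test. Of the 226 distinct neighbours 184 were tested and 0 were called by edgeR, against 0.446% of all genes. An unadjusted p under 0.05 was found for 26 neighbours, or 14.1% of those tested, against 12.1% of all genes. Their median log2 fold change was 0.09, against -0.02 for all genes.

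Some neighbours are known macrophage genes. Acod1, which makes the antimicrobial metabolite itaconate, lies 22520 bases from Gm34643 on the same strand. It stood at 27.2 ± 8.8 CPM in labelled-high libraries and 10.8 ± 1.5 CPM in labelled-low ones (log2 fold change 1.33 ± 0.28 SE, adjusted p 0.119 by edgeR). Gm34643 itself stood at 1.61, 2.63 and 2.83 CPM against 1.70, 1.06 and 1.43 CPM, with overlap. Tlr5, the receptor of bacterial flagellin, lies 232 bases from Gm38079 and stood at 11 ± 1.4 and 22.8 ± 1.6 CPM (log2 fold change -1.05 ± 0.20 SE, adjusted p 0.0864 by edgeR). Gm38079, which covers 154 bases, stood at 0.723, 0.490 and 0.465 CPM in labelled-high libraries and at 0.959, 0.777 and 1.25 CPM in labelled-low ones. It lies past the 3′ end of Tlr5 on the same strand, with starts 21488 bases apart, and had 7 to 19 reads per library. Whether these reads come from Tlr5 transcripts was not tested. Pmp22, a membrane protein gene 14367 bases from B430319H21Rik, had the smallest adjusted p of any neighbour, 0.0845 by edgeR, at 101.3 ± 11 and 42.9 ± 12 CPM. Both Tlr5 and Pmp22 were named after their values were seen.

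RefSeq promoters, 250 bases before to 50 after a gene's start (GRCm38.p6), were found for 118 members, with 143 starts, so some members count more than once. The core site of PU.1, the master factor of macrophages (GAGGAAGT on either strand), occurred in 14 of these starts (9.79%), at 12 members, against 1052 of 32851 promoters (3.20%). The site of AP-1, an inducible factor (TGANTCA on either strand), occurred in 14 starts (9.79%) against 7.81% of all. The 32851 promoters were taken without regard to expression, while the members were chosen as expressed in these macrophages. These shares thus compare unlike sets, and promoters of expressed protein-coding genes were not searched apart. Among the 12 members with the PU.1 letters, of 118 searched, were F730311O21Rik, Gm33370, Gm10522 and Gm19951 of the 16 above. The windows at the starts of F730311O21Rik overlap and hold the same match. That match is thus counted more than once among the 14 starts with the PU.1 letters. A promoter from each direction is shown with the match in capitals, for F730311O21Rik at chr1:132341667-132341966 and for Gm19951 at chr12:99642846-99643145, both on the plus strand. In the second the match is on the opposite strand, as ACTTCCTC. A match describes letters in this window and shows no binding.
F730311O21Rik: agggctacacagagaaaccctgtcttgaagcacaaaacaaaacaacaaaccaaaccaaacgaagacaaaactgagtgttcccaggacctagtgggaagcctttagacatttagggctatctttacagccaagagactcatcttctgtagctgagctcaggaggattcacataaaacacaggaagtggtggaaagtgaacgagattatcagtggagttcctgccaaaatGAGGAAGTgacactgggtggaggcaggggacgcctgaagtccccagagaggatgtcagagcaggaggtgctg
Gm19951: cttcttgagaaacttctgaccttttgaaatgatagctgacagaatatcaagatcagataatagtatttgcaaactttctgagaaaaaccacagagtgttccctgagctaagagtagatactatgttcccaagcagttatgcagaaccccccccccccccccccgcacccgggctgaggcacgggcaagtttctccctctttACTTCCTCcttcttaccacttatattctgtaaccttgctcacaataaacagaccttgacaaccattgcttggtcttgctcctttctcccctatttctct

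At the edge of the rule, Gm45151, Gm49201 and Gm19589 were just inside with 10 as the lowest of their 3 highest counts, and Gm4316, C430042M11Rik and Gm13710 just outside with 9 there. Gm45151 had 10, 4 and 11 reads in labelled-high libraries and 4, 10 and 0 in labelled-low ones, and Gm4316 had 27, 9 and 8 and 14, 1 and 7.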

How the data were processed

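Per the submitters' processing notes the tools were FastQC, Trimmomatic, STAR, HTSeq and DESeq2 on GRCm38. Each deposited table lists raw counts of reads by Ensembl gene. For the annotation release, tool versions and strand setting the sources used here give nothing, though the kit marks strand, per the labels' protocols. Reads assigned to no feature (35.2% to 49.4% of the listed reads), ambiguous and multiply aligned reads stayed out of library sizes. Types, positions and lengths came from GENCODE M21, which matched 55227 of 55487 genes. Tests between labels used edgeR 4.0.16 under R 4.3.3 (TMM, default low-count filter, quasi-likelihood, labels only, Benjamini-Hochberg over 14140 genes). The fit was checked on simulated data with the same spread for every gene. No library stood apart in composition there, unlike labelled low replicate 3 here. Standard errors are the fold change over the square root of F. Alternatives used DESeq2 1.42.0, limma 3.58.1 (voom), other scaling and filters, a GC offset (local regression, span 0.4), the batch as a block, and each library left out. The labels give the batch as the replicate number. Same-numbered libraries' deviations from the label means correlated at 0.159, 0.335 and -0.116. Named were the 12 most abundant members, 8 per direction by p, members with described roles, those at the edge of the rule, and neighbours. The members and lists were chosen with earlier results of these data known.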

Additional observations from a re-analysis of the deposited data

How the results depend on the processing

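The call of 0 members in either direction was the same under RLE size factors, total counts, DESeq2, limma-voom, a filter at 1 CPM, the replicate block, removal of rRNA and mitochondrial genes, the GC offset and without any library but labelled low replicate 2. Exceptions were 1 lower member with no filter on low counts (Zfp469), 3 lower with the GC offset and the replicate block together (AU020206, Gm47127 and Gm49662), and, without labelled low replicate 2, 2 higher (Gm28151 and Gm30382) and 1 lower (Zfp469). Leaving out each library thus gave 0 to 2 higher and 0 to 1 lower members. Over all genes, against 13 higher and 50 lower, total counts gave 8 higher, the replicate block 1 higher, DESeq2 121 and 277, no filter 113 and 436, the GC offset 152 and 217, the offset with the replicate block 246 and 380, and leaving out each library 0 to 246 higher and 8 to 784 lower. The cause of these shifts was not tested. The median log2 fold change of the members was 0.24 with total counts, where that of all genes was 0.25. For the 16 members named by p, 251 of 254 values kept direction and side of the threshold, and the other 3 (AU020206, Gm47127 and Gm30382) passed it in the same direction. A minimum of 5 reads in 3 libraries gave 368 members, 20 reads 162, and 10 reads in all 6 libraries 96. Of neighbours within 50 kb 0 were called, as over all distances. Depth was low for most members, with a median count of 7 in labelled low replicate 3 and 21.5 to 33.5 elsewhere. The check on simulated data was made over all genes, and the size of difference that the members' depth can show was not tested.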
